A study of Mus musculus with 15 samples.

Results

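The genes described here are 10 genes of MHC class I antigen processing, chosen from a list of names with no threshold on a measured value: the transactivator *Nlrc5*, the light chain *B2m*, the peptide transporter genes *Tap1* and *Tap2*, the loading factor *Tapbp*, the immunoproteasome subunits *Psmb8*, *Psmb9* and *Psmb10*, and the proteasome activator subunits *Psme1* and *Psme2*. All 10 of them were found among the 51763 genes counted, and all 10 passed the filter on low counts, which kept 16919 genes. They were followed over all 5 conditions of a study of bone marrow-derived macrophages (BMDMs).

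MHC class I molecules show peptides from proteins made inside the cell to CD8+ T cells. The peptides are cut by the proteasome, whose constitutive catalytic subunits can be exchanged for immunosubunits, and whose ends can be capped by the PA28 activator. They are pumped into the endoplasmic reticulum by the TAP transporter and loaded onto a heavy chain paired with β2-microglobulin. NLRC5 is a transactivator that is brought to class I promoters by factors that bind their SXY module, and the whole set is known to be raised by interferons and, in macrophages, by Toll-like receptor (TLR) ligands.

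In the GRCm38 genome, 5 of the genes lie on chromosome 17 in or near the MHC region. *Tapbp* is at chr17:33915899-33929292 on the + strand, *Psmb9* at chr17:34181987-34187764 on the − strand, *Tap1* at chr17:34187553-34197225, *Psmb8* at chr17:34197721-34201454 and *Tap2* at chr17:34203527-34216321, the last 3 on the + strand. *Nlrc5* (chr8:94434356-94527272, +) and *Psmb10* (chr8:105935735-105938444, −) are on chromosome 8, *Psme1* (chr14:55578123-55581529, +) and *Psme2* (chr14:55587441-55591113, −) on chromosome 14, and *B2m* (chr2:122147686-122153083, +) on chromosome 2. The annotated exons of *Tap1* and *Psmb9* share 212 bases on opposite strands. The libraries were stranded, but the sources used here do not say whether strand was used in counting, so a part of the reads of *Psmb9*, with 77895 counts in all, may come from *Tap1*, with 563029. *Tapbp* shares 149 exon bases with *Zbtb22* on the same strand.

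Promoter sequence is shown for *B2m*, whose window held the most of the motifs searched, and for the stretch that *Tap1* and *Psmb9* share, since every member rose in at least 1 of the conditions. RefSeq windows (GRCm38.p6) from 250 bases before to 50 bases after the start were given for 8 of the 10 genes, and *Nlrc5* and *Tap2* were not among them. Each window was searched on both strands for a pair of GAAA repeats with any 2 bases between them (the core of the interferon-stimulated response element, ISRE), TTCNNNGAA (the interferon-γ-activated site, GAS), the κB consensus, ATTGG (the inverted CCAAT box that NF-Y binds) and TGACG (the core bound by CREB and ATF factors), none of which overlapped another in the *B2m* window. The 249 bases before the annotated *B2m* start, on the + strand of chr2:122147437-122147685, hold all of these motifs but GAS, given in capitals.
B2m: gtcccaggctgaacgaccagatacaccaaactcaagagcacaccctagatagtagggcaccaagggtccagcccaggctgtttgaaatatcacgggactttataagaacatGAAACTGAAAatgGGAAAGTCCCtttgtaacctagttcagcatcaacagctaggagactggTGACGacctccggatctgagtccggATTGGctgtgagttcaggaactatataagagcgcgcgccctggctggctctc
The ISRE core began 139 bases before the RefSeq start, the κB match 126, TGACG 78 and ATTGG 53. *Psmb9* and *Tap1* are read away from each other from RefSeq starts that are 225 bases apart, so both have the same TGACG and CCAAT matches. The 30 bases around each are given on the + strand, with the motif in capitals, from chr17:34187322-34187351 for CCAAT (the reverse complement of ATTGG) and chr17:34187458-34187487 for TGACG.
NF-Y motif: gggctcggctttCCAATcagcggctgcgcg
CREB motif: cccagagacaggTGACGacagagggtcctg
Among the 8 windows, TGACG was found in 4 (*B2m*, *Tap1*, *Psmb9*, *Psme2*) and in 20.8% of all 32817 windows, and ATTGG in 4 (*B2m*, *Tap1*, *Psmb9*, *Tapbp*) and in 37.4%. The ISRE core was found in 2 (*B2m* and *Psme1*) against 3.43% of all windows, the κB consensus in 1 (*B2m*) against 8.46%, and GAS in 1 (*Psmb8*) against 8.29%. None of the 5 motifs was found in the *Psmb10* window. These matches describe letters in a window and were not tested for binding.

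The BMDMs came from wild-type female C57BL/6NTac mice aged 8 to 10 weeks, were matured with M-CSF for 10 days by the labels (8 to 9 days by the study's methods), and those of 5 mice were pooled before seeding. They were stimulated for 24 h, in 3 samples per condition, with PBS as control or with HMGB1 at 5 µg/mL in its fully reduced form (frHMGB1) or its disulfide form (dsHMGB1). LPS alone was given at 1000 ng/mL, and the M1 control (LPS/IFNγ) received LPS with IFNγ at 20 ng/mL. HMGB1 is a nuclear protein that acts as an alarmin outside the cell, and its disulfide form is, like LPS, a ligand of TLR4. The LPS dose of the LPS/IFNγ group is 100 ng/mL in the protocol label and the study's methods but 1000 ng/mL in the treatment label, so in comparisons of LPS/IFNγ with LPS the presence of IFNγ and a lower LPS dose cannot be told apart. The HMGB1 forms came from different laboratories, and the sources differ on whether frHMGB1 was kept with the reducing agent DTT. Since all samples came from one pool of cells and were technical replicates, no SD, standard error (SE) or p given here speaks of the spread between mice.

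Total counts per library ranged from 40934540 to 80925478, and the lowest count of a member in any library was 561, for *Nlrc5*. The macrophage markers (*Adgre1*, *Csf1r*, *Cd68* and 5 others) were detected in all conditions, with a summed level from 13520 CPM (counts scaled to the library total) in LPS/IFNγ to 27281 CPM in frHMGB1. Of the 6 T and NK cell markers 4 were at 0 in every library (*Cd3e*, *Cd3g*, *Cd8a*, *Ncr1*), of the 5 neutrophil markers 3 (*S100a9*, *Ly6g*, *Mpo*), and the 4 B cell markers summed to at most 0.30 CPM. The others of the first 2 lists had counts over the libraries together, 156 for *Klrb1c* and 4 for *Trac*, and 2487 for *S100a8* and 15 for *Elane*. The T and NK cell markers summed to at most 0.40 CPM, and the neutrophil markers to 1.69 to 5.47 CPM. The 4 dendritic cell markers summed to 3.35 to 5.17 CPM in PBS, frHMGB1 and dsHMGB1, 7.81 to 8.62 in LPS and 13.8 to 15 in LPS/IFNγ, and the 4 fibroblast markers to 111 to 266 CPM in PBS and 180 to 235 elsewhere. Their part in the results was not tested. In bulk RNA, fewer cells of a type and less RNA per cell cannot be told apart.

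PBS replicate 3 stood apart from the other libraries. Its correlation with the other PBS libraries was 0.934 and 0.939, against 0.987 to 0.993 for the other pairs of replicates. Relative to its fellow replicates, the median protein-coding gene differed by 0.82 (log2) among the shortest of 4 equal-sized classes of transcript length and by −0.91 among the longest, against −0.26 to 0.21 for any class in a library outside PBS. Both ends of that range were in dsHMGB1 replicate 1, at 0.21 for the shortest class and −0.26 for the longest, a smaller shift in the same direction. Its deviations from the mean of its condition correlated at 0.46 with those of PBS replicate 3. The part of this smaller shift in the dsHMGB1 values was not tested. Of the members, in PBS replicate 3, *Psmb10* was 5.13 times the mean of PBS replicates 1 and 2, *Psme2* 4.16 times, *Psmb8* 3.73 times, *Psme1* 3.00 times and *Psmb9* 2.66 times, while *Tap2* was 2.15 times, *Tapbp* 1.97 times, *Tap1* 1.24 times and *Nlrc5*, the longest, 0.553 times. *B2m*, with the shortest transcript of the 10 (860 bases), was 1.67 times, less than the longer *Psmb9* and *Tap2*. No cause of this shift was tested. The members' results against PBS are therefore given with all libraries and without this one, and the same is done where other comparisons depend on it, because all 15 libraries share 1 estimate of the spread.

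**Figure D1:**
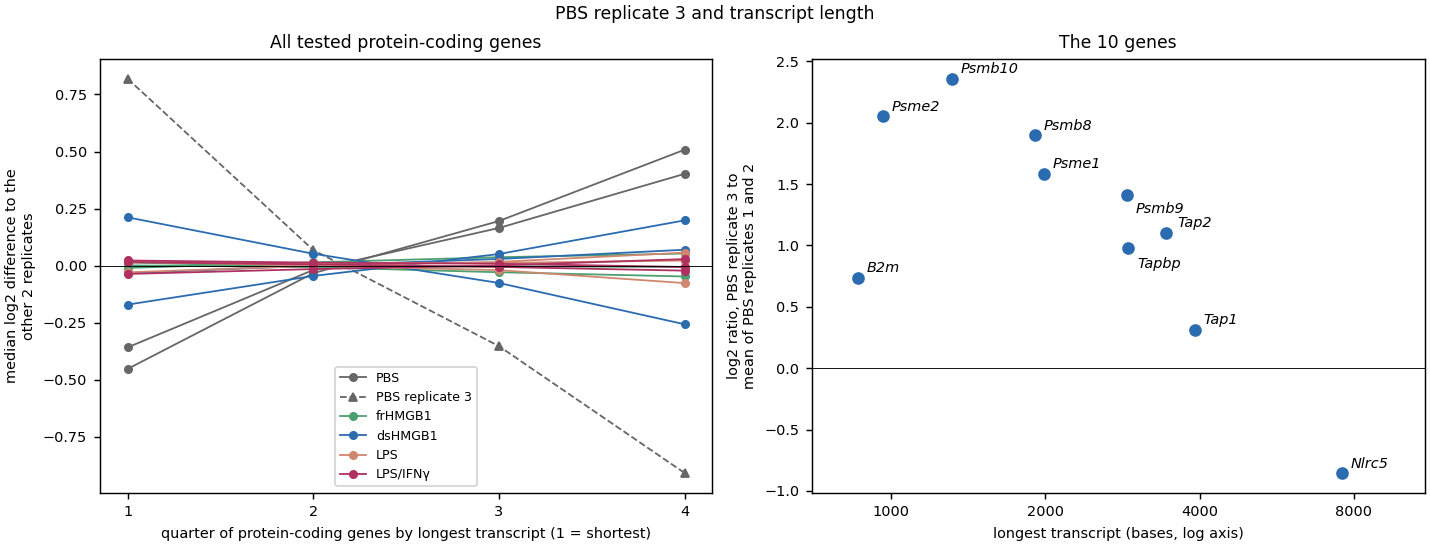
Left, median log2 difference of each library to the other replicates of its condition over protein-coding genes in 4 equal-sized classes of longest transcript length, 1 line per library. Right, log2 ratio of PBS replicate 3 to the mean of PBS replicates 1 and 2 for each of the 10 genes against its longest transcript in bases. PBS replicate 3 falls from 0.82 to −0.91 over the classes, and Nlrc5 alone of the 10 genes lies below 0.

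*Nlrc5*, the transactivator, rose against PBS in dsHMGB1, LPS and LPS/IFNγ, and its 1.25-fold difference in frHMGB1 was not called (edgeR adjusted p = 0.459). In normalized counts (counts scaled by DESeq2 size factors) its PBS libraries were at 1206, 1170 and 657 and its frHMGB1 libraries at 1252, 1335 and 1210. The dsHMGB1 libraries were at 13472, 17957 and 16482, the LPS libraries at 30487, 32507 and 29337, and the LPS/IFNγ libraries at 25252, 26981 and 26638. No range overlapped that of another condition, although PBS and frHMGB1 all but met, and the means rose in the order PBS, frHMGB1, dsHMGB1, LPS/IFNγ and LPS. Against PBS, *Nlrc5* was 15.8-fold higher in dsHMGB1 (log2 fold change 3.98, SE 0.20, edgeR adjusted p = 5.82e-09), 30.4-fold in LPS (4.92, SE 0.20, adjusted p = 6.28e-10) and 25.9-fold in LPS/IFNγ (4.70, SE 0.20, adjusted p = 8.28e-10). These were 13.4-fold, 25.8-fold and 22.0-fold with PBS replicate 3 left out, all still called. dsHMGB1 was 12.6-fold above frHMGB1 (adjusted p = 1.26e-08) and 1.93-fold below LPS (adjusted p = 0.00435). It was also 1.65-fold below LPS/IFNγ (adjusted p = 0.0138), a call that was lost without dsHMGB1 replicate 1 (adjusted p = 0.0749). LPS/IFNγ and LPS differed by −0.23 (log2, SE 0.20), which was not called with all libraries (adjusted p = 0.54) and was called without PBS replicate 3 (adjusted p = 0.0187).

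*B2m*, the light chain shared by all classical class I molecules, was the most abundant of the 10 per length, with 128471 ± 40621 normalized counts per kilobase of exon in PBS and 317465 ± 10841 in LPS (SD, n = 3). Lengths here are the union of annotated exons. Its normalized counts were 93159, 87600 and 150696 in PBS, 115019, 118739 and 118582 in frHMGB1, and 200269, 176900 and 167743 in dsHMGB1. They were 283688, 266437 and 268935 in LPS and 263491, 256028 and 270158 in LPS/IFNγ. LPS and LPS/IFNγ overlapped each other and lay above all other libraries, while the frHMGB1 libraries lay within the range of PBS. *B2m* rose against PBS by 1.64-fold in dsHMGB1 (adjusted p = 0.00107), 2.47-fold in LPS (adjusted p = 5.79e-06) and 2.38-fold in LPS/IFNγ (adjusted p = 6.1e-06), the smallest rise of the set in dsHMGB1. The same folds were 2.00, 3.00 and 2.89 over the other PBS libraries. It was 1.55-fold higher in dsHMGB1 than in frHMGB1 (adjusted p = 0.0034), a call that was lost with an adjustment for transcript length (log2 0.13, adjusted p = 0.201) and with scaling by total counts alone (0.22, adjusted p = 0.108), which moved the median of all genes there by −0.40. It was 1.5-fold lower in dsHMGB1 than in LPS (adjusted p = 0.0142) and 1.45-fold lower than in LPS/IFNγ (adjusted p = 0.0131). The first of these was lost without dsHMGB1 replicate 3 (adjusted p = 0.0619), and the second without that library (0.0574) or without LPS/IFNγ replicate 3 (0.0513). The 10 genes together took 0.299% to 0.478% of all counts in PBS, 0.36% to 0.374% in frHMGB1, 0.634% to 0.734% in dsHMGB1, 0.782% to 0.823% in LPS and 0.72% to 0.741% in LPS/IFNγ, of which *B2m* held the largest share.

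*Tap1*, a subunit of the peptide transporter, had the largest rise of the 10 in all 3 inflammatory conditions. Its normalized counts were 1903, 1835 and 2325 in PBS and 2431, 2380 and 2085 in frHMGB1. They were 40377, 35235 and 37356 in dsHMGB1, 70669, 73041 and 72132 in LPS, and 86213, 85141 and 87747 in LPS/IFNγ. The ranges of dsHMGB1, LPS and LPS/IFNγ did not overlap, and LPS/IFNγ was highest. Against PBS the rise was 18.7-fold in dsHMGB1 (log2 4.22, SE 0.10, adjusted p = 2.02e-12), 35.7-fold in LPS (5.16, SE 0.10, adjusted p = 3.33e-13) and 42.8-fold in LPS/IFNγ (5.42, SE 0.10, adjusted p = 2.08e-13). It was 20.1-fold, 38.3-fold and 45.9-fold without PBS replicate 3. dsHMGB1 exceeded frHMGB1 by 16.4-fold (adjusted p = 4.04e-12) and was 1.91-fold below LPS (adjusted p = 1.24e-05) and 2.29-fold below LPS/IFNγ (adjusted p = 3.86e-07). *Tap1* was the only member called higher in LPS/IFNγ than in LPS with all libraries, by 1.20-fold (adjusted p = 0.0252). That call was lost when any single LPS or LPS/IFNγ library was left out (adjusted p 0.116 to 0.142) or dsHMGB1 replicate 1 (0.058), and the fold change stayed positive in each case.

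*Tap2*, the other transporter subunit, rose less than its partner and was ordered differently. It stood at 2285, 2210 and 4830 normalized counts in PBS and at 2597, 2501 and 2372 in frHMGB1. The dsHMGB1 libraries were at 16760, 13118 and 14254, those of LPS at 18994, 19469 and 19018, and those of LPS/IFNγ at 12706, 12796 and 12756. LPS was above every dsHMGB1 library and dsHMGB1 above every LPS/IFNγ library, the reverse of the place that LPS/IFNγ held for *Tap1*. The rise against PBS was 4.74-fold in dsHMGB1 (adjusted p = 1.59e-06), 6.17-fold in LPS (2.78e-07) and 4.11-fold in LPS/IFNγ (2.38e-06). Leaving out PBS replicate 3 made it 6.53-fold, 8.47-fold and 5.63-fold. *Tap2* was 5.91-fold higher in dsHMGB1 than in frHMGB1 (adjusted p = 5.4e-07). The difference of LPS/IFNγ from LPS was −0.59 (log2, SE 0.25, adjusted p = 0.0722) with all libraries. It was called without PBS replicate 3 (−0.59, SE 0.08, adjusted p = 9.81e-07) and without PBS replicate 2 (adjusted p = 0.0406).

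*Tapbp* encodes tapasin, which holds class I molecules at the transporter while they are loaded. Its PBS libraries were at 19538, 19458 and 38491 normalized counts, its frHMGB1 libraries at 19656, 17989 and 17486, and its dsHMGB1 libraries at 80121, 70106 and 71297. The LPS libraries were at 88978, 91755 and 90190 and the LPS/IFNγ libraries at 99581, 96668 and 100909, the highest of all. The rise against PBS was 2.86-fold in dsHMGB1 (adjusted p = 1.59e-05), 3.50-fold in LPS (2.54e-06) and 3.84-fold in LPS/IFNγ (9.94e-07), and 3.78-fold, 4.6-fold and 5.04-fold without PBS replicate 3. dsHMGB1 was 4.02-fold above frHMGB1 (adjusted p = 1.38e-06). *Tapbp* was, with *Tap1*, the only member whose LPS/IFNγ libraries all lay above the LPS libraries, by 1.10-fold, which held for 31.4% of all genes, a difference that was not called (adjusted p = 0.56, and 0.079 without PBS replicate 3).

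**Figure D2:**
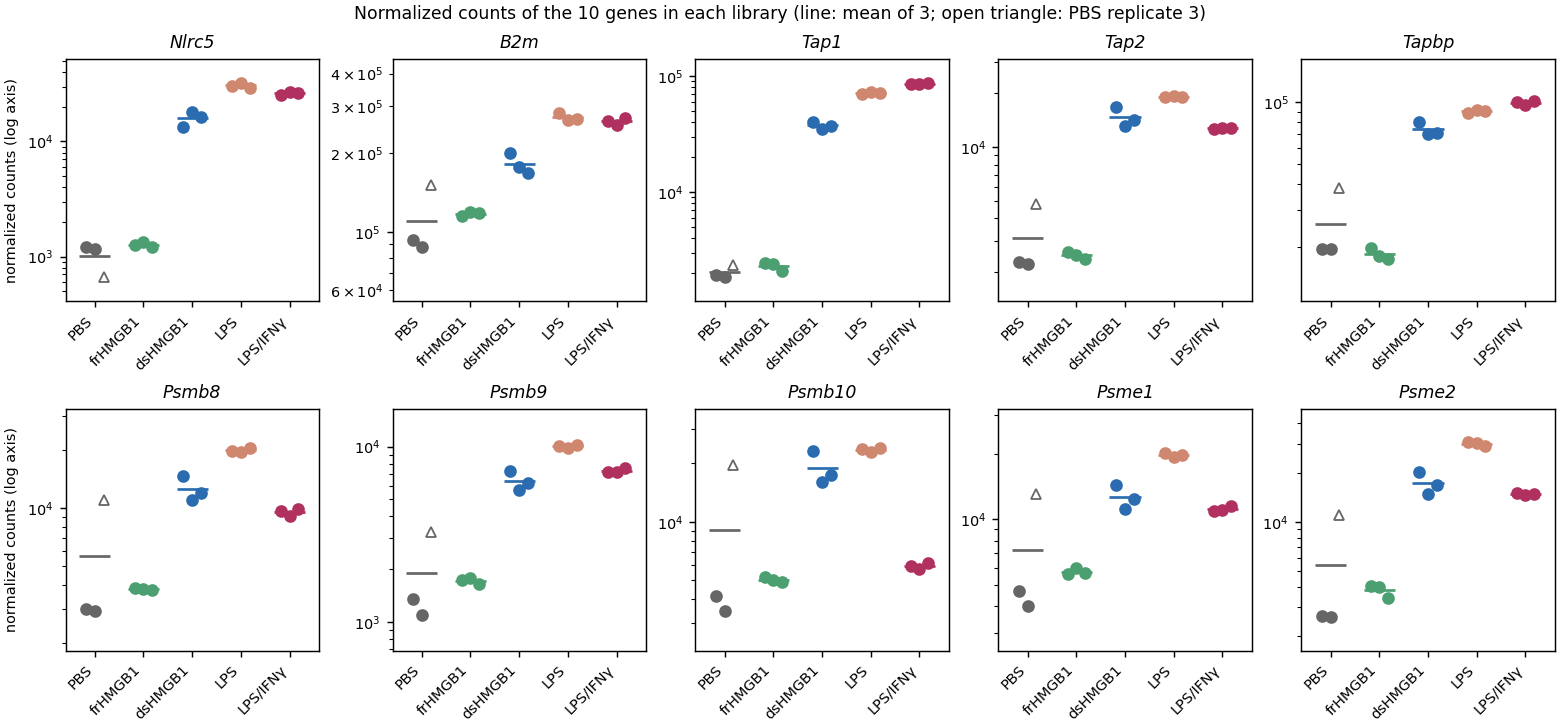
Normalized counts (log axis) of each of the 10 genes in every library, by condition. Points are libraries, lines the mean of 3, and the open triangle is PBS replicate 3, which lies among the stimulated libraries for Psmb8, Psmb10 and Psme1. The LPS/IFNγ libraries of Psmb10 lie near frHMGB1, whereas those of Tap1 are the highest of all.

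*Psmb8*, *Psmb9* and *Psmb10* encode the immunosubunits β5i, β1i and β2i, which replace β5, β1 and β2 in newly built proteasomes. All were higher in dsHMGB1 than in frHMGB1 and higher in LPS than in PBS. *Psmb8* was at 3002, 2943 and 11077 normalized counts in PBS, 3887, 3825 and 3775 in frHMGB1, 14644, 10957 and 11951 in dsHMGB1, 19833, 19421 and 20394 in LPS, and 9654, 9089 and 9938 in LPS/IFNγ. PBS replicate 3 lay above all LPS/IFNγ libraries and above 1 dsHMGB1 library. With all libraries *Psmb8* rose 2.21-fold in dsHMGB1 (adjusted p = 0.017) and 3.51-fold in LPS (adjusted p = 0.000876), and the 1.69-fold difference of LPS/IFNγ from PBS was not called (adjusted p = 0.0826). All were called without PBS replicate 3, at 4.2-fold, 6.65-fold and 3.19-fold (adjusted p at most 1.82e-11). The dsHMGB1 call was lost without PBS replicate 1 (adjusted p = 0.0547) or without dsHMGB1 replicate 1 (0.0539).

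*Psmb9* was the least abundant of the 10 per length in dsHMGB1, LPS and LPS/IFNγ, with 1740 ± 225, 2749 ± 67.1 and 1989 ± 59.7 normalized counts per kilobase (SD, n = 3). Its normalized counts were 1351, 1103 and 3261 in PBS, 1729, 1789 and 1647 in frHMGB1, and 7262, 5646 and 6193 in dsHMGB1. In LPS they were 10115, 9792 and 10274, and in LPS/IFNγ 7184, 7128 and 7532. The ranges of dsHMGB1 and LPS/IFNγ overlapped, and LPS lay above both. With all libraries, though not without PBS replicate 3, *Psmb9* was the only immunosubunit called higher than PBS in all 3 inflammatory conditions, 3.34-fold in dsHMGB1 (adjusted p = 0.000152), 5.29-fold in LPS (7.5e-06) and 3.83-fold in LPS/IFNγ (4.07e-05). The folds were 5.18, 8.15 and 5.89 without PBS replicate 3. dsHMGB1 was 3.70-fold above frHMGB1 (adjusted p = 8.95e-05).

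*Psmb10* was high in dsHMGB1 and LPS and low in LPS/IFNγ. Its normalized counts were 4141, 3484 and 19546 in PBS and 5200, 5042 and 4902 in frHMGB1. They were 23082, 16001 and 17366 in dsHMGB1 and 23579, 22935 and 23843 in LPS, but 5946, 5700 and 6130 in LPS/IFNγ. The dsHMGB1 and LPS ranges overlapped, and every LPS/IFNγ library was below every library of both. *Psmb10* was 3.96-fold lower in LPS/IFNγ than in LPS (log2 −1.98, SE 0.47, adjusted p = 0.00686), the only member called lower there with all libraries, and 3.18-fold higher in dsHMGB1 than in LPS/IFNγ (1.67, SE 0.47, adjusted p = 0.0118). Both were nearly the same without PBS replicate 3 (−1.99 and 1.67), with an SE of 0.11. dsHMGB1 was 3.73-fold above frHMGB1 (adjusted p = 0.00419). Against PBS, the 2.59-fold rise in LPS was called (adjusted p = 0.0195), the 2.08-fold difference in dsHMGB1 was not (0.0637), and LPS/IFNγ was below PBS by 0.61 (log2, adjusted p = 0.266). PBS replicate 3 changed the size of all 3 values. Without it the folds over PBS were 6.12 in LPS, 4.92 in dsHMGB1 and 1.54 in LPS/IFNγ, all higher and all called (adjusted p at most 0.000201). The LPS call was lost without PBS replicate 1 (adjusted p = 0.066) or 2 (0.0516), under upper-quartile normalization (0.0836) or total counts alone (0.0927), and with both conditions fitted alone (0.124). LPS/IFNγ was called lower than PBS without PBS replicate 2 (−0.99, adjusted p = 0.0473) and under total counts alone (−1.17, 0.0217).

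*Psme1* and *Psme2* encode the α and β subunits of PA28, the ring that caps the proteasome and opens it. *Psme1* was at 4707, 4010 and 13082 normalized counts in PBS, 5610, 5986 and 5697 in frHMGB1, 14369, 11141 and 12454 in dsHMGB1, 20103, 19343 and 19642 in LPS, and 10922, 11034 and 11487 in LPS/IFNγ. PBS replicate 3 lay above every LPS/IFNγ library. With all libraries *Psme1* rose 2.71-fold in LPS (adjusted p = 0.00128) and 1.74-fold in dsHMGB1 (0.0387), and its 1.53-fold difference in LPS/IFNγ was not called (0.0901). The dsHMGB1 call held in 16 of 28 alternatives. Among others, it was lost under total counts alone (adjusted p = 0.103) and with both conditions fitted alone (0.217). It was also lost without PBS replicate 1 or 2 or any 1 of the dsHMGB1 libraries (adjusted p 0.0507 to 0.125), whereas without PBS replicate 3 the folds were 2.90 in dsHMGB1, 4.49 with LPS and 2.54 with LPS/IFNγ, all called. dsHMGB1 was 2.20-fold above frHMGB1 (adjusted p = 0.00783).

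*Psme2* showed the larger change of the PA28 pair. Its normalized counts were 2669, 2608 and 10966 in PBS, 4054, 4016 and 3432 in frHMGB1, 20097, 14788 and 16726 in dsHMGB1, 30796, 30413 and 29111 in LPS, and 15009, 14535 and 14725 in LPS/IFNγ. The LPS libraries were above all others, and the dsHMGB1 and LPS/IFNγ ranges overlapped. The rise against PBS was 3.18-fold in dsHMGB1 (adjusted p = 0.00332), 5.56-fold in LPS (0.00016) and 2.73-fold in LPS/IFNγ (0.00603), and 6.50-fold, 11.3-fold and 5.55-fold without PBS replicate 3. With each condition fitted alone with PBS, the calls in dsHMGB1 (log2 1.68, adjusted p = 0.0722) and LPS/IFNγ (1.47, 0.0826) were lost. dsHMGB1 was 4.49-fold above frHMGB1 (adjusted p = 0.000632). The values are uncertain because *Psme2b*, a retroposed copy with its own row, shares 789 of 794 aligned bases with the *Psme2* transcript (99.4%), so that reads may have been split between them or dropped. *Psme2b* rose in the same conditions, by 1.74 (log2) in dsHMGB1, 2.12 with LPS and 1.65 with LPS/IFNγ against PBS, and by 2.58, 2.95 and 2.48 without PBS replicate 3.

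In the comparison of frHMGB1 with PBS, which asks whether the reduced form changes these genes at all, 0 of the 10 was called by edgeR in either direction, against 1.31% of all genes called higher and 5.69% called lower. DESeq2 also called 0, and 2 had an unadjusted p under 0.05 in edgeR (*Tap1* and *Tapbp*, in opposite directions). The median log2 fold change of the members was −0.33, against −0.01 over all genes. When PBS replicate 3 was left out, the median was 0.37 and 7 of the 10 were called higher, against 8.41% of all genes. These 7 were *B2m* (1.30-fold), *Tap1* (1.23-fold), *Psmb8* (1.29-fold), *Psmb9* (1.41-fold), *Psmb10* (1.33-fold), *Psme1* (1.33-fold) and *Psme2* (1.46-fold), whereas *Nlrc5*, *Tap2* and *Tapbp* were at 0.09, 0.15 and −0.08 on the log2 scale. With an adjustment for transcript length 1 member was called higher, *B2m* at 0.81 (log2, adjusted p = 4.93e-06), against 4.09% of all genes. The comparison therefore rests on which PBS libraries are used and on that adjustment, and the unadjusted differences reached at most 1.46-fold without that library.

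In dsHMGB1 against PBS, 9 of the 10 were called higher, *Psmb10* being the exception, against 23.3% of all genes, and the median was 1.59 against −0.10 over all genes. In LPS against PBS all 10 were called higher, against 26.7% of all genes, with a median of 2.11. In LPS/IFNγ against PBS, 7 were called higher, against 29% of all genes, with a median of 1.69, and *Psmb8*, *Psmb10* and *Psme1* were not called. Without PBS replicate 3 all 10 were called higher in each of these comparisons, against 29.8%, 32.9% and 33.3% of all genes, with medians of 2.34, 2.88 and 2.40. These comparisons share the PBS libraries. In dsHMGB1 against frHMGB1, which does not use PBS, all 10 were called higher, against 27.7% of all genes, with every dsHMGB1 library above every frHMGB1 library for each gene, which held for 36.7% of all genes, and a median of 1.95.

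**Figure D3:**
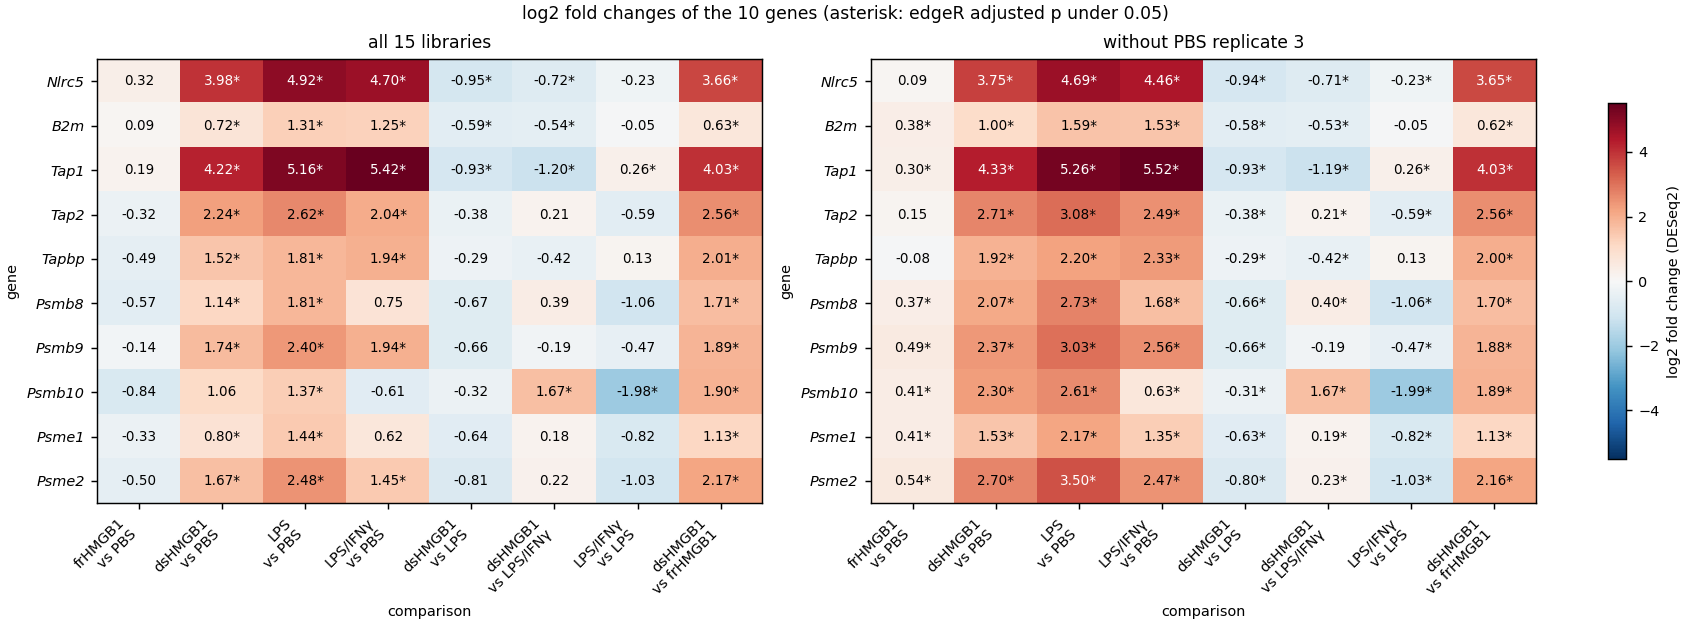
DESeq2 log2 fold changes of the 10 genes in 8 comparisons, first condition over second, with all 15 libraries (left) and without PBS replicate 3 (right). Colour gives the size, from blue (lower) to red (higher), and an asterisk marks an edgeR adjusted p under 0.05. The columns without PBS keep nearly the same values on both sides, and all of them but dsHMGB1 over frHMGB1, where all 10 are called on both sides, gain calls on the right.

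dsHMGB1 and LPS, both ligands of TLR4, were compared directly. All 10 members had a lower mean in dsHMGB1, by 1.22-fold (*Tapbp*) to 1.93-fold (*Nlrc5*), except that scaling by total counts alone turned *Tapbp* and *Psmb10* to 0.04 and 0.02 on the log2 scale. The median log2 difference was −0.65, against 0.02 over all genes. For 9 of them, all but *Psmb10*, every dsHMGB1 library was below every LPS library, which held for 26.5% of all genes. With all libraries 3 of the 10 were called lower (*Nlrc5*, *B2m* and *Tap1*), against 10.6% of all genes. Without PBS replicate 3, whose spread enters the shared estimate, all 10 were called lower at nearly the same fold changes, against 23.3% of all genes, and with the 6 libraries of the 2 conditions fitted alone 9 were. Under scaling by total counts, which moved the median of all genes in this comparison by 0.33, 1 member remained called lower, *Tap1* (log2 −0.60).

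dsHMGB1 compared with LPS/IFNγ split the set. *Nlrc5*, *B2m* and *Tap1* were called lower in dsHMGB1, against 16.7% of all genes, and *Psmb10* was called higher, against 16.5%. Without PBS replicate 3, *Tapbp* joined the lower genes (−0.42, adjusted p = 9.45e-06), and *Tap2* (0.21), *Psmb8* (0.40), *Psme1* (0.19) and *Psme2* (0.23) the higher ones, while *Psmb9* was not called (−0.19, adjusted p = 0.115, and 0.13 under total counts alone). That made 4 lower and 5 higher, against 25.4% and 27.9% of all genes, with a median of 0.00 over the members. Scaling by total counts alone moved the median of all genes in this comparison by 0.32. Under it *Nlrc5* (−0.40, adjusted p = 0.199) and *B2m* (−0.21, 0.166) were no longer called, and *Tap2* was called higher (0.53, 0.0275).

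In LPS/IFNγ against LPS, 8 of the 10 members had a lower mean (7 with protein-coding genes alone in the fit, where *B2m* was at 0.02) and the median was −0.53, against 0.00 over all genes. With all libraries only *Psmb10* was called lower and only *Tap1* higher, against 9.36% and 16.3% of all genes. *Psmb8* differed by −1.06 (SE 0.39, adjusted p = 0.0536), *Psme2* by −1.03 (SE 0.42, adjusted p = 0.083), *Psme1* by −0.82 (SE 0.34, adjusted p = 0.0744) and *Psmb9* by −0.47 (SE 0.31, adjusted p = 0.284), with every LPS/IFNγ library below every LPS library, as held for 29.1% of all genes. Without PBS replicate 3 each of these was called lower (adjusted p at most 8.57e-05), as were *Nlrc5*, *Tap2* and *Psmb10*, making 7 lower against 24.3% of all genes. *Psmb8* and *Psme2* were also called lower without PBS replicate 1 (adjusted p = 0.028 and 0.0457) and without PBS replicate 2 (0.0245 and 0.04), and *Psme1* without the latter (0.0283). All 5 proteasome members were thus lower in LPS/IFNγ than in LPS in every library, with *B2m* at −0.05 and *Tapbp* at 0.13. The length adjustment moved *B2m* to −0.45 (adjusted p = 0.000342), which was called.

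The constitutive subunits were set beside the immunosubunits as a ratio of counts within each library, which does not depend on how libraries are scaled. With 3 libraries against 3, the exact permutation test, two-sided, cannot give a p below 0.1. The ratio of *Psmb8* to *Psmb5* (β5) was 1.6, 1.68 and 2.10 in PBS and averaged 1.64 ± 0.10 in frHMGB1, 4.07 ± 0.07 in dsHMGB1, 6.33 ± 0.22 with LPS and 4.69 ± 0.15 with LPS/IFNγ (SD, n = 3). The ratio of *Psmb9* to *Psmb6* (β1) was 0.171, 0.148 and 0.116 in PBS and averaged 0.168 ± 0.009 in frHMGB1, 0.310 ± 0.010 in dsHMGB1, 0.313 ± 0.005 with LPS and 0.408 ± 0.011 with LPS/IFNγ. The ratio of *Psmb10* to *Psmb7* (β2) was 2.28, 2.00 and 5.70 in PBS and averaged 2.56 ± 0.16 in frHMGB1, 6.45 ± 0.50 in dsHMGB1, 5.85 ± 0.16 with LPS and 1.52 ± 0.05 with LPS/IFNγ.

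The 3 pairs ranked the conditions differently. For β5 LPS was highest, for β1 LPS/IFNγ, and for β2 dsHMGB1, and each of these stood clear of the other conditions with no overlap of libraries (exact permutation p = 0.1, the smallest possible), although for β2 the lowest dsHMGB1 library (6.10) was close to the highest LPS library (6.02). From LPS to LPS/IFNγ the β5 ratio fell 1.35-fold, the β2 ratio fell 3.85-fold and the β1 ratio rose 1.30-fold, in every library. *Psmb9* shares exon bases with *Tap1*, which was highest in LPS/IFNγ, and part of its reads may come from *Tap1*. What this adds to the β1 ratio was not tested. *Psmb7* itself was at 4007 ± 107 normalized counts in LPS and 3899 ± 202 in LPS/IFNγ, *Psmb6* at 32151 ± 474 and 17828 ± 238, and *Psmb5* at 3144 ± 131 and 2040 ± 156 (SD, n = 3). The higher β1 ratio in LPS/IFNγ thus went with a lower level of both *Psmb9* and *Psmb6*, and the lower β2 ratio with a lower level of *Psmb10* beside a *Psmb7* of nearly the same mean. The ratios in frHMGB1 overlapped those of PBS in all 3 pairs. Relative to PBS replicates 1 and 2, the β2 ratio was 3.02-fold higher in dsHMGB1, 2.74-fold higher in LPS and 1.40-fold lower in LPS/IFNγ.

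**Figure D4:**
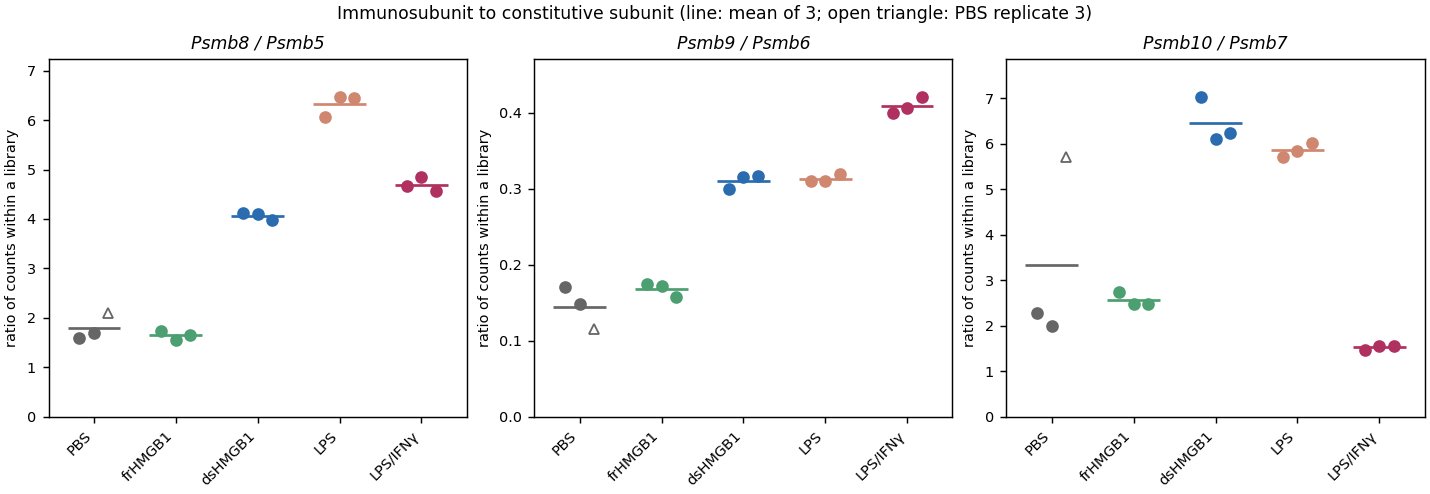
Ratio of the counts of each immunosubunit to those of the constitutive subunit it replaces, within each library, by condition (linear axis from 0). Points are libraries, lines the mean of 3, and the open triangle is PBS replicate 3. LPS is highest for Psmb8 to Psmb5 (mean 6.33), LPS/IFNγ for Psmb9 to Psmb6 (0.408) and lowest for Psmb10 to Psmb7 (1.52).

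The other proteasome genes gave the setting for the lower proteasome members in LPS/IFNγ. Without PBS replicate 3, the comparison of LPS/IFNγ with LPS called 2 of 3 constitutive catalytic subunits lower (*Psmb5* and *Psmb6*), 9 of 12 tested 20S subunits lower and 1 higher, 7 of 18 subunits of the 19S regulator lower and 2 higher, and 5 of 8 other activators and assembly factors lower, beside 24.3% of all genes called lower and 25.1% called higher. With all libraries, only *Psma6* (−0.92, adjusted p = 0.0377) and *Adrm1* (−0.50, adjusted p = 0.0449) of these lists were called lower. The list medians were −0.62, −0.34, −0.05 and −0.46 (log2), beside −1.06 for the middle one of the 3 immunosubunits and −0.82 and −1.03 for the PA28 pair. In LPS against PBS, 2 of the constitutive catalytic subunits were called higher with all libraries (*Psmb6* by 1.15 and *Psmb7* by 0.78, log2), as were 5 of the 12 other 20S subunits and 6 of the 18 of the 19S regulator, against 26.7% of all genes. These were 3, 11 and 15 without PBS replicate 3, against 32.9% of all genes, with *Psmb6* at 2.06, *Psmb7* at 1.16 and *Psmb5* at 0.78. The core subunits *Psma6* (1.5, and 2.18 without that library) and *Psma3* (1.37 and 1.82) rose. The assembly factors *Psmg1* (−1.56 and −0.70) and *Psmg2* (−1.18 and −0.45) fell, as they did in LPS/IFNγ against PBS (−2.19 and −1.33 for *Psmg1*, −1.73 and −1.0 for *Psmg2*). Of the 8 genes in their list, 2 were called higher and 2 lower in LPS, against 26.7% and 36.2% of all genes. In LPS/IFNγ 2 were higher and 3 lower, against 29% and 31.2%. Without PBS replicate 3 the list had 5 higher and 2 lower in LPS, against 32.9% and 38.3%, and 2 and 2 in LPS/IFNγ, against 33.3% and 34.4%. *Psme3*, which encodes PA28γ, the nuclear relative of PA28, rose in dsHMGB1 by 0.48 (adjusted p = 0.00339) and in LPS by 0.49 (0.00424), and by 0.37 and 0.38 without PBS replicate 3. It also rose in LPS/IFNγ, by 0.41 (adjusted p = 0.00825) and 0.30 without that library.

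**Figure D5:**
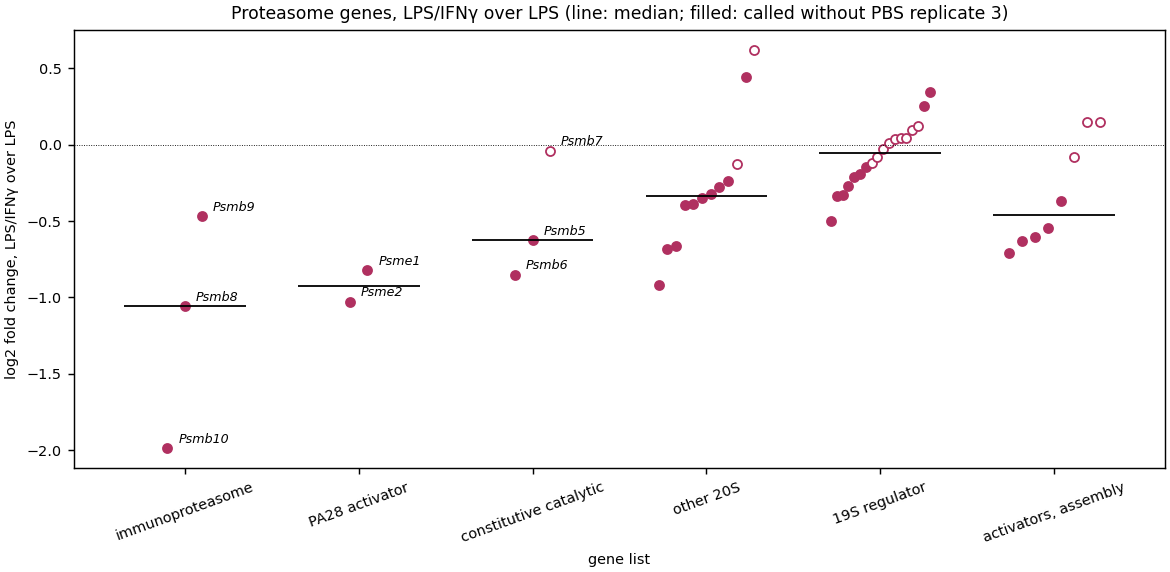
log2 fold change of LPS/IFNγ over LPS for the proteasome genes, by list, with all 15 libraries. Each point is a gene, the line is the median of the list, and filled points passed an edgeR adjusted p under 0.05 without PBS replicate 3. Psmb10 (−1.98) is the lowest of all genes shown.

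The heavy chains were counted in the same libraries. Of 20 class I heavy chain and class I-like genes listed, 17 were tested, and 12 of these were called higher than PBS in each of dsHMGB1, LPS and LPS/IFNγ, with 1, 3 and 0 called lower, beside 23.3%, 26.7% and 29% of all genes called higher and 24.2%, 36.2% and 31.2% called lower. These were 11, 12 and 13 higher and 1, 4 and 1 lower without PBS replicate 3, when 29.8%, 32.9% and 33.3% of all genes were called higher and 29%, 38.3% and 34.4% lower. Reads of these near-identical genes can be split among them, so single values are uncertain. *H2-K1*, a classical class I heavy chain, was at 48123, 46495 and 102535 normalized counts in PBS (mean 65718 ± 31895) and at 58617 ± 1351 in frHMGB1 (SD, n = 3). It reached 112747 ± 12325 in dsHMGB1, 132285 ± 2382 in LPS/IFNγ and 173143 ± 2114 in LPS. *H2-D1*, another, was at 176423, 167419 and 237178 normalized counts in PBS (mean 193673 ± 37944) and 202035 ± 1936 in frHMGB1, and at 234997 ± 20120 in dsHMGB1, 356398 ± 5575 in LPS/IFNγ and 344807 ± 7472 in LPS. For both genes PBS replicate 3 was the highest PBS library and lay above the lowest dsHMGB1 library (101389 for *H2-K1* and 214675 for *H2-D1*). The non-classical *H2-M2* had the largest rise, by 6.51, 6.90 and 5.41 (log2) in the 3 conditions (6.28, 6.66 and 5.17 without PBS replicate 3). *Mr1*, which presents vitamin B metabolites, fell by 1.13 in dsHMGB1 and 1.16 in LPS, and by 1.30 and 1.34 without that library. In frHMGB1 against PBS, 1 of the 17 was called higher, *H2-M2* (1.30, adjusted p = 0.00146), and 2 lower, against 1.31% and 5.69% of all genes, and 6 were higher and 2 lower without PBS replicate 3, against 8.41% and 9.09%. In LPS/IFNγ against LPS, 7 of the 17 were called lower and 3 higher, against 9.36% and 16.3% of all genes. Without PBS replicate 3 these were 10 and 3, against 24.3% and 25.1%. With all libraries *H2-T10* (−1.92), *H2-T22* (−1.59) and *H2-Q7* (−1.50) were among the lower genes, and *Mr1* was among the higher (0.87).

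Among 6 genes of peptide loading and trimming, the tapasin relative *Tapbpl* rose by 2.17 in dsHMGB1, 2.54 with LPS and 1.97 with LPS/IFNγ (log2), and by 2.12, 2.49 and 1.92 without PBS replicate 3. The trimming peptidase *Erap1* rose by 0.99, 0.88 and 0.65, and by 0.74, 0.62 and 0.39 without that library. The aminopeptidase *Lnpep* rose by 0.94 with LPS (adjusted p = 0.0205) and by 1.74 with LPS/IFNγ (0.000243), was at 0.70 in dsHMGB1 (adjusted p = 0.0727) and was lower in dsHMGB1 than in LPS/IFNγ (−1.04, adjusted p = 0.0159). Its values against PBS were 0.61, 1.41 and 0.38 without PBS replicate 3, all called. The chaperones *Calr* and *Pdia3* fell in the same conditions, by 0.39, 0.43 and 0.36 for *Calr* and by 0.41, 0.60 and 0.57 for *Pdia3*. These falls were smaller without PBS replicate 3 (−0.22, −0.27 and −0.20, and −0.19, −0.39 and −0.35), though still called. The chaperone *Canx* was not called with all libraries (0.36, 0.17 and 0.27), and without PBS replicate 3 it was at 0.10, −0.10 and −0.0047, of which the difference in LPS was called lower (adjusted p = 0.0474). With all libraries 2, 3 and 3 of the 6 were thus called higher and 2 lower in each condition, beside 23.3%, 26.7% and 29% of all genes called higher and 24.2%, 36.2% and 31.2% lower.

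The factors that act with or above NLRC5 were also measured, with *Ciita* beside them. The interferon-pathway genes *Stat2*, *Irf1*, *Irf2*, *Irf8* and *Irf9*, and *Ciita*, were called higher than PBS by each of the inflammatory stimuli, with and without PBS replicate 3. Of all genes, 23.3%, 26.7% and 29% were called higher with all libraries. *Irf1*, an interferon regulatory factor, went from 4681 ± 1015 normalized counts in PBS to 91243 ± 7765 in dsHMGB1, 116463 ± 1673 with LPS and 140651 ± 2410 with LPS/IFNγ (SD, n = 3). *Ciita*, the class II counterpart of *Nlrc5*, was at 1583 ± 642 in PBS, 3771 ± 554 in dsHMGB1, 4541 ± 246 with LPS and 17907 ± 264 with LPS/IFNγ. *Ciita* and *Irf8* rose in LPS/IFNγ over LPS, by 1.98 and 2.07 (log2), and *Irf9* fell by 0.90. Of the 7 genes whose products bind the SXY module, *Rfx5* (2.05), *Creb1* (1.48) and *Nfyb* (0.96) rose and *Rfxank* (−1.07) and *Rfxap* (−0.92) fell in dsHMGB1 against PBS, and these 5 were called in the same directions in LPS and LPS/IFNγ, with and without PBS replicate 3. Genes called in either direction were also frequent over the whole table, with 23.3% higher and 24.2% lower in dsHMGB1, 26.7% and 36.2% in LPS, and 29% and 31.2% in LPS/IFNγ. These comparisons share PBS.

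Across the 15 libraries the members' log2 levels were positively correlated in every pair. Pearson's r was lowest between *Nlrc5* and *Psmb10* (0.514) and highest between *Psmb8* and *Psme1* (0.994), and these values describe 5 conditions more than 15 independent points. The part that the shift of PBS replicate 3 has in them was not tested. Outside the set, the protein-coding genes whose levels were most like the mean of the 10 members included *Ifi35* (r = 0.997), *Cars*, *Dbnl* and *Snx20*. For *Nlrc5* alone they included *Lcp2* (r = 0.998), *Parp12*, *Parp8* and *Jak2*. *Jak2*, a kinase of the interferon-γ receptor, had a mean of 2073 normalized counts in PBS, 33947 in dsHMGB1, 65486 with LPS and 68414 with LPS/IFNγ.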

How the data were processed

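RNA was sequenced from 15 libraries of BMDMs, 3 per condition, grouped by the treatment given in the labels. According to the study's methods, the authors sequenced stranded mRNA libraries from both ends, mapped the reads on GRCm38 using STAR and ran DESeq2. The deposited values are whole-number counts of reads per Ensembl gene, with no normalization or filter. For the counting program and its annotation, nothing is given in the sources used here, and 0 columns of the table were left unused. Of 51763 identifiers, 51661 were found in GENCODE M21, which gave symbols, positions and lengths, and 102 were not. No pair of replicates agreed within sampling noise (chi-square per degree of freedom 4.31 to 763).

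Called genes have a Benjamini-Hochberg adjusted p under 0.05, over all 16919 genes past filterByExpr, by edgeR 4.0.16 (R 4.3.3; quasi-likelihood F test, TMM), which fitted the 15 libraries together without covariates. Adjusted p-values printed without a tool are from this test. Normalized counts, unshrunken log2 fold changes and SEs are from DESeq2 1.42.0. The fit was also run on simulated data with 200 changed genes, and no outcome of that run is given here.

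The members and gene lists were chosen with earlier results of these data known. All members are named. Of the listed pathway genes, those named have the 3 largest rises or falls among called genes of a list in a comparison, at 100 or more normalized counts on average, besides *Psmb5*, *Psmb6*, *Psmb7*, *H2-K1*, *H2-D1*, *Irf1*, *Rfx5*, *Psme3* and *Ciita*. The 5 most alike genes were ranked by Pearson's r of log2(normalized count + 1) over the libraries. Some genes that these rules name are not reported here. *Psme2b*, *Canx*, *Irf2* and the named marker genes fall outside this rule and were named with their values known. Alternatives tried included DESeq2's Wald test, other normalizations and filters, fits to protein-coding genes or to 2 conditions only, testing for fold changes over 2, blocking on replicate number and omitting each library. A length adjustment, TMM factors for the fold change and the sum of *Psme2* and *Psme2b* were added after the data were seen. No protein sequence is given, since none was used here.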

Additional observations from a re-analysis of the deposited data

How the results depend on the processing

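Of the fold changes of the members under all alternatives, 2089 kept their direction and their side of the threshold, 71 gained a call in the same direction, 66 lost one and 14 turned sign. None of the 14 had been called with all libraries, and 6 of them were called in the new direction, all without PBS replicate 3. Leaving out 1 library in turn, the members called higher ranged from 0 to 7 in frHMGB1 against PBS (114 to 1459 of all genes), 7 to 10 in dsHMGB1 against PBS (3466 to 5170), 9 to 10 in LPS against PBS (4330 to 5698), 7 to 10 in LPS/IFNγ against PBS (4491 to 5769), 1 to 5 in dsHMGB1 against LPS/IFNγ (2266 to 4840) and 0 to 1 in LPS/IFNγ against LPS (1990 to 4353). Those called lower ranged from 2 to 10 in dsHMGB1 against LPS (1306 to 4032 of all genes), 2 to 4 in dsHMGB1 against LPS/IFNγ (2268 to 4398), 1 to 7 in LPS/IFNγ against LPS (1301 to 4213) and 0 to 1 in LPS/IFNγ against PBS (4681 to 5965). Without PBS replicate 3 each of these member counts but the last was at its upper end, and the last was at 0. Over the same omissions the log2 fold change in frHMGB1 against PBS ranged from −0.045 to 0.38 for *B2m*, −0.50 to 0.15 for *Tap2*, −0.87 to 0.37 for *Psmb8*, −0.41 to 0.49 for *Psmb9*, −1.22 to 0.41 for *Psmb10*, −0.62 to 0.41 for *Psme1* and −0.82 to 0.54 for *Psme2*, and that of *Psmb10* in LPS/IFNγ against PBS from −0.99 to 0.63. The difference in log2 ratio ranged from −0.20 to 0.00096 for *Psmb8* to *Psmb5* and −0.50 to 0.26 for *Psmb10* to *Psmb7* in frHMGB1 against PBS, both highest without PBS replicate 3, and from −0.027 to 0.014 for *Psmb9* to *Psmb6* in dsHMGB1 against LPS, which was also above 0 without LPS replicate 3 (0.0020).

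With each pair of conditions fitted alone, 5 members were called higher in dsHMGB1 against PBS (15.7% of all genes), 9 lower in dsHMGB1 against LPS (21.7%), 3 higher and 4 lower in dsHMGB1 against LPS/IFNγ (27.7% and 27.6%), and 2 higher and 7 lower in LPS/IFNγ against LPS (31% and 30.1%). Tested for a fold change above 2, 5 members were called higher in dsHMGB1 against PBS (10% of all genes) and 6 against frHMGB1 (14%). This test called 0 members in either direction in dsHMGB1 against LPS/IFNγ and in LPS/IFNγ against LPS, and 0 lower in dsHMGB1 against LPS, where it called 1.04% to 5.42% of all genes. Total counts alone, which moved the median of all genes by −0.69 to 0.33, gave 1 lower in LPS/IFNγ against PBS (51.9% of all genes), 1 lower in dsHMGB1 against LPS (5.23%), 2 higher and 1 lower in dsHMGB1 against LPS/IFNγ (28.4% and 9.83%), and 5 lower in LPS/IFNγ against LPS (9.81%), with *Tapbp* at 0.044 and *Psmb10* at 0.016 in dsHMGB1 against LPS and *Psmb9* at 0.13 in dsHMGB1 against LPS/IFNγ. Upper-quartile factors moved that median by −0.35 to 0.11. In LPS/IFNγ against LPS, *Tap1* was no longer called under RLE normalization, upper-quartile normalization or no filter on low counts, which left 0 members higher, while 4 were lower by DESeq2 (12.7% of all genes), 2 with no filter (4.43%) and 6 with length adjustment (14.1%). Length adjustment called 1 member higher in frHMGB1 against PBS (*B2m*, 0.81) and turned *Psme2* there to 0.29, and with protein-coding genes alone *B2m* in LPS/IFNγ against LPS was at 0.023. The cause of these differences was not tested.

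Same-numbered libraries did not deviate together (median correlation −0.0045 over 30 pairs, from −0.386 to 0.375, 1 of them above 0.1). No pairing by number was thus seen, but whether the samples were handled in numbered sets cannot be told from these values. With a replicate block 10 members were called higher in dsHMGB1 against PBS (22.8% of all genes), and in no other comparison did the block change a call.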
